A study of Mus musculus with 36 samples.

Results

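The 9 genes Egfr, Met, Nf1, Trp53, Mdm2, Cdk4, Rb1, Idh1 and Atrx, which recurrent mutations, amplifications or deletions target in human glioma, were followed in normal mouse brain cells. Egfr and Met encode receptor tyrosine kinases. Nf1 encodes a brake on RAS, Trp53 and Mdm2 belong to the p53 pathway, Cdk4 and Rb1 to the RB pathway, Idh1 encodes a metabolic enzyme and Atrx a chromatin remodeller. The members were chosen by name, not by a measured value, but with earlier results of these data known. All 9 of the 9 were found among 25507 genes with an assigned transcript, and all 9 passed the filter on low values (at least 1 FPKM in 2 or more libraries) that left 13604 genes for testing. FPKM is the fragments of a transcript per kilobase of its length, scaled to the mapped fragments of the library, a level per length that can be set side by side between genes.

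The series holds 36 RNA-seq libraries of cells from the brain of the C57/Bl6 mouse strain, with 2 libraries for each of 6 populations (Neg and the lettered A to E) in each of 3 regions (olfactory bulb, cortex and brainstem). Every sample carries the cell type label astrocyte, the Neg samples included, while the design text speaks of cell lines. The labels name no mutation, tumour, treatment or age, do not say by which antigens the populations were separated, and do not give from which animals the 2 libraries of a group were made. The p-values thus reflect no more than how far these libraries scatter, and that scatter may be technical. The replicate numbers used here follow accession order and only name a library.

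In a dividing cell the members act on a few linked routes. EGFR and MET pass growth factor signals to RAS, which neurofibromin, the product of Nf1, switches off; downstream, cyclin D with CDK4 inactivates the retinoblastoma protein and lets the cell enter S phase. The p53 protein halts or kills damaged cells and raises transcription of Mdm2, whose product in turn marks p53 for degradation. IDH1 makes 2-oxoglutarate, which demethylases of DNA and histones need, and ATRX deposits histone H3.3 at repeats and telomeres.

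The libraries differed in how much they detected, and that difference ran along the populations. The FPKM of nuclear transcripts summed to a median of 42300 in Neg and 54700 in E, against 93300 in D, 95800 in A, 118000 in B and 136000 in C. Of the 8 libraries with fewer than 5000 genes at 1 FPKM, 3 were Neg, 3 E, 1 A and 1 D. The relative depth, read from coverage over FPKM, was 0.0695 in brainstem E replicate 1 and 0.315 in olfactory bulb E replicate 1, and from 1.16 to 4.08 in the other 34. The B libraries, at 2.71 to 4.08, were deeper than every library of the other populations (2.37 at most), so depth and population B cannot be told apart. Exact zeros need care, since Hprt and Tbp, genes that every cell uses, were listed at 0 in 2 and 3 libraries. The mean log2(FPKM + 1) of 15 astrocyte markers had a median of 3.58 in Neg, 4.63 in E, 5.57 in D, 5.91 in A, 6.47 in B and 7.12 in C, with at most 2 of the 15 at 0 in a library. Markers of microglia and macrophages were present too, with a median of 6.02 over 14 markers in B against 1.28 in E. The share of these differences in the members' results was not tested.

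All 9 members reached 1 FPKM in at least 1 library of every population. Taking the median over the 36 libraries, Nf1 stood at 11.0 FPKM, Atrx at 10.2, Idh1 at 9.45, Rb1 at 8.88, Cdk4 at 5.10, Mdm2 at 4.17, Trp53 at 3.86, Egfr at 3.81 and Met at 0.292. Met was the low member: it was listed at 0 in 13 libraries and stood under 1 FPKM in 24. Populations B or C came first in the order of mean log2 levels for 8 members and D for Met. Of the 45 steps between neighbouring populations in these orders, 0 passed the test (lowest adjusted p = 0.111, limma). The plot of levels by population shows how widely the 3 regions and the 2 libraries of a group spread within each population.

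**Figure D1:**
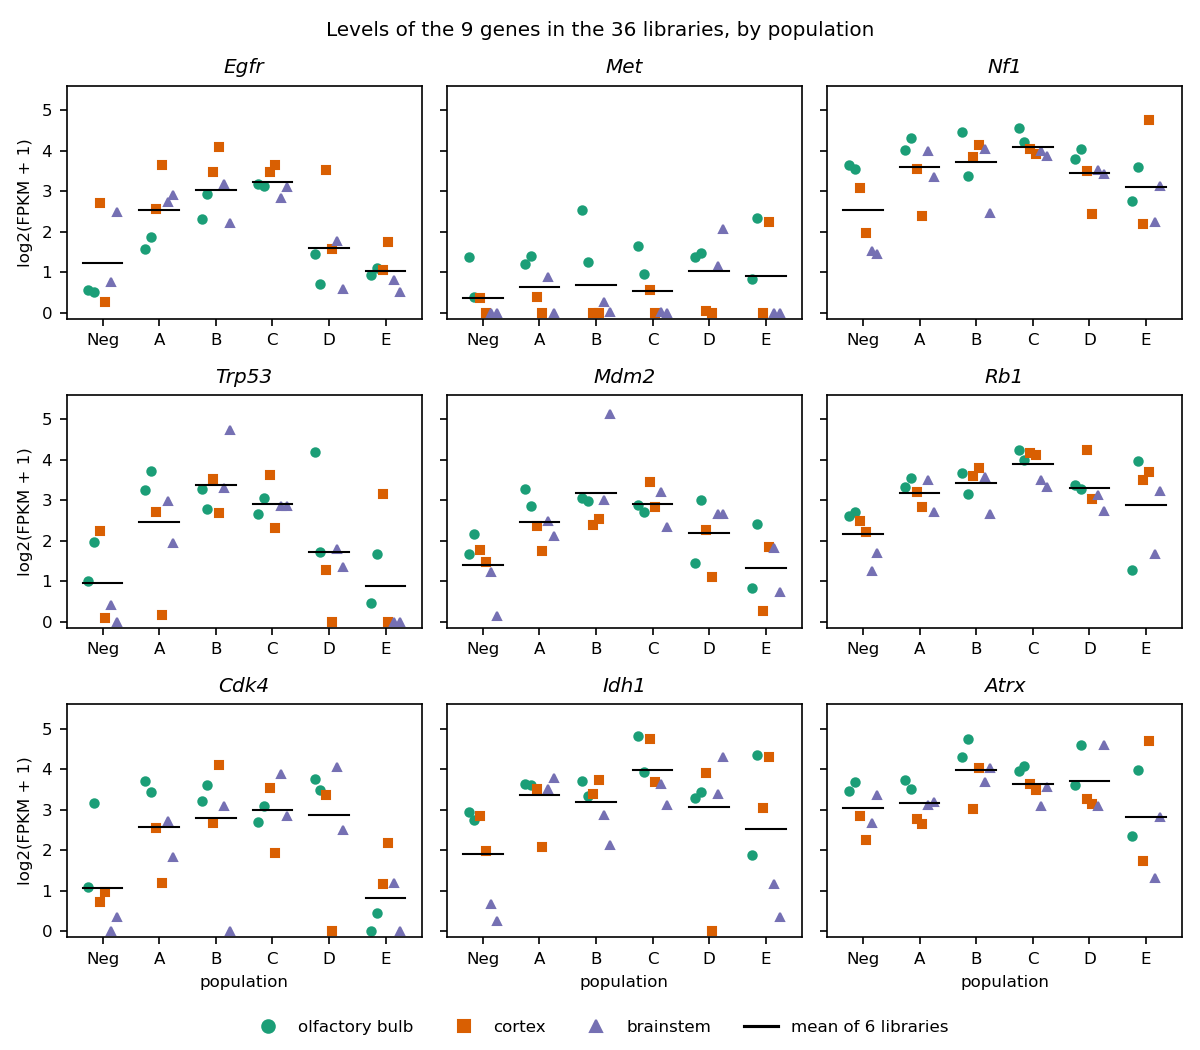
Levels of the 9 genes as log2(FPKM + 1) on the vertical axis, by population on the horizontal axis. Each point is 1 library, coloured by region, and each bar is the mean of 6 libraries. The means of Neg and E are the lowest for every gene except Met, and Met lies near 0 outside the olfactory bulb in most libraries.

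The lettered populations together were compared with the population labelled Neg. On FPKM as deposited, 7 of 9 members were higher over A to E together: Cdk4 by 1.35 ± 0.43 (SE, log2 scale with a pseudocount of 1; adjusted p = 0.0271), Trp53 by 1.32 ± 0.42 (0.0285), Idh1 by 1.31 ± 0.40 (0.0226), Rb1 by 1.17 ± 0.32 (0.0133), Egfr by 1.07 ± 0.34 (0.0260), Nf1 by 1.06 ± 0.34 (0.0268) and Mdm2 by 1.00 ± 0.34 (0.0349), all from limma with Benjamini-Hochberg adjustment over all genes. Met at 0.40 (adjusted p = 0.25, limma) and Atrx at 0.41 (0.363) did not pass. Rb1 lost its call without cortex Neg replicate 2, and each of the other 6 lost it without 4 or 5 of the 6 Neg libraries, left out singly. Of all genes tested, 20.1% were called higher, and the median of all genes was itself shifted by 0.51, against a median of 1.07 over the members. A lower level per library and fewer cells of a type cannot be told apart in such bulk samples.

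The calls against Neg ended when the libraries were put on a common scale. After each library was rescaled to a summed FPKM of 1000000, 0 of 9 members were called higher, with 2.46% of all genes called, and the members' median was 0.58 beside 0.38 for all genes. After quantile normalization, which gives every library the same distribution of values, 0 of 9 were called higher, with 3.01% of all genes called, and the members' median was 0.18. Atrx turned to lower values on these scales, at -0.72 and -0.61, without passing the test (adjusted p = 0.331 and 0.245, limma).

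**Figure D2:**
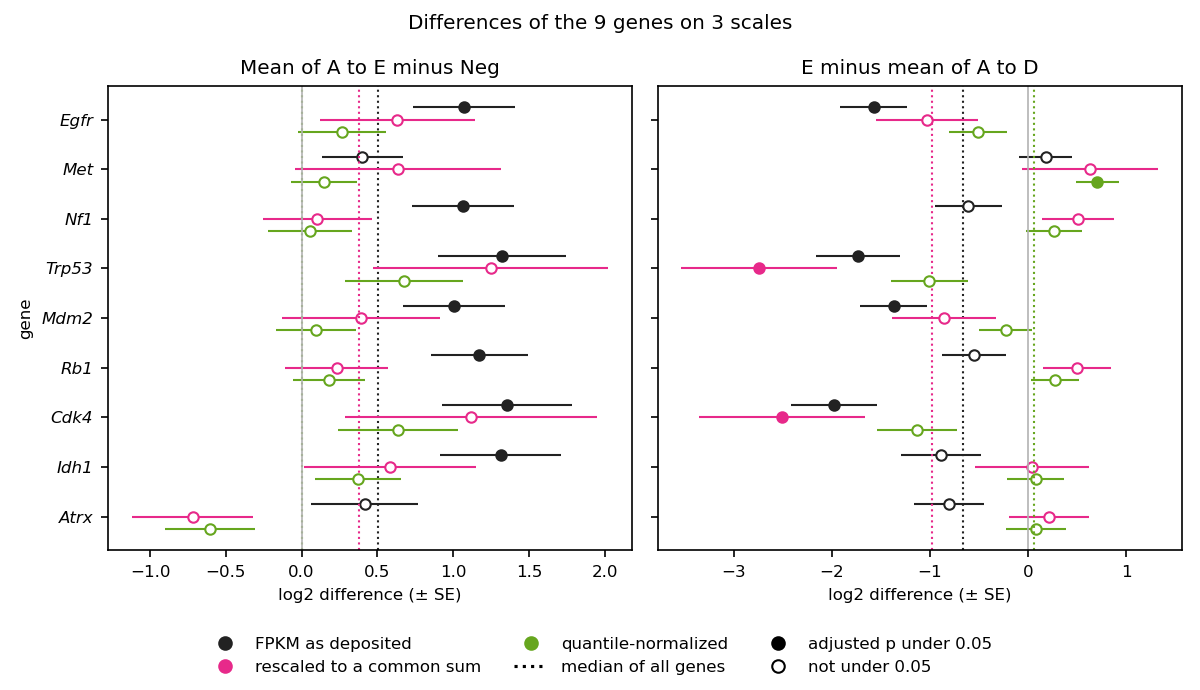
Log2 difference of each gene with its SE on the horizontal axis, for A to E averaged, minus Neg, (left) and E minus the mean of A to D (right), on FPKM as deposited, rescaled and quantile-normalized values. Filled points passed an adjusted p of 0.05 and dotted lines mark the median of all genes on each scale; 7 points are filled for deposited FPKM on the left and none on the other scales.

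By pairs, the same 7 members that rose in the pooled comparison were higher in B than in Neg and in C than in Neg, where 41.7% and 40.2% of all genes were called higher. None was called for A against Neg, with 3.09% of genes called higher, for D against Neg, with 4.09%, or for E against Neg, with 0%. The test over the 6 populations jointly called 6 members (Egfr, Trp53, Mdm2, Rb1, Cdk4 and Idh1) on deposited FPKM, beside 45.4% of all genes, and Nf1 just missed it (adjusted p = 0.0501, limma's moderated F test). It called 0 after rescaling, with 15.7% of all genes called, and 0 after quantile normalization, with 12.7%.

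Within the lettered populations, each was compared with the average of the remaining 4. In E, 4 of 9 members were called lower than the other lettered populations on deposited FPKM (Cdk4 at -1.98, Trp53 at -1.73, Egfr at -1.57 and Mdm2 at -1.37), beside 42.3% of all genes and a median of all genes of -0.66. After rescaling 2 of 9 remained called, Trp53 and Cdk4, and after quantile normalization 0 were called lower. Each of the 4 calls was also lost with a term for the series of sample numbers, the second of which holds all D and E libraries. Egfr was at -1.57 ± 0.34 on deposited FPKM (adjusted p = 0.00132, limma), -1.03 after rescaling (0.145) and -0.51 after quantile normalization (0.304). In A and D no member was called against the other lettered populations, with 0% of all genes called higher in A and 0.0735% called lower in D.

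Egfr (chromosome 11, bases 16752203 to 16918158 of mm10, plus strand, GENCODE annotation) encodes the receptor of epidermal growth factor and transforming growth factor alpha and is the receptor most often amplified in glioblastoma. Its FPKM ranged from 6.14 to 11.5 in C (mean 8.52 ± 1.93, SD, n = 6), from 3.66 to 16.0 in B (8.06 ± 4.6) and from 1.98 to 11.5 in A (5.52 ± 3.40). In D it ranged from 0.496 to 10.6 around a median of 1.85, in Neg from 0.206 to 5.51 around 0.584, and in E from 0.43 to 2.37 around 0.989. The longest deposited transcript, uc007ibo.1, held 82.2% of the Egfr FPKM in C, 64.6% in A and 28.1% in Neg. The short uc007ibp.2 (803 bases) held 34.7% in Neg and 23.8% in A, was listed at 0 in 32 libraries and reached 7.89 FPKM. The 6 C libraries and the 6 E libraries did not overlap, nor did those of B and E or of C and Neg. Between C and Neg, 40.2% of all genes were called higher in C. The share of all genes whose libraries separate in this way is not given, here or for the members below. The shares of genes called are a different measure, so no such separation can be read as particular to a member. Egfr was lower in E than in A, B and C and lower in D than in B and C, pairs in which 4.98%, 42.8%, 43.4%, 7.18% and 1.95% of all genes were called lower. In C it exceeded the mean of the other lettered populations by 1.18 ± 0.34 (adjusted p = 0.0383, limma), where 7.37% of genes were called higher, and this call was lost on both other scales and when any of 10 single libraries was left out.

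In the cortex Egfr tended to stand above the olfactory bulb. Over the 10 lettered libraries of each region, its FPKM had a median of 10.1 in cortex (1.07 to 16.0), 4.64 in brainstem (0.43 to 8.02) and 2.32 in olfactory bulb (0.632 to 8.02), and the regions overlapped. The cortex difference of 0.96 ± 0.34 did not pass on deposited FPKM (adjusted p = 0.124, limma). It passed after quantile normalization, at 1.17 ± 0.29 (0.0186), where 1.32% of all genes were called higher, and not after rescaling (1.20 ± 0.51, 0.260).

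The 6 pathway lists place the members among genes of the same route, and each list holds the members themselves. Their counts on deposited FPKM are to be read against the 20.1% of all genes called higher in A to E than in Neg and the 42.3% called lower in E than in the other lettered populations, with medians of all genes of 0.51 and -0.66. Of 19 genes tested on the list of receptor kinases and their ligands, 6 were higher in A to E than in Neg, none was lower, and the median difference was 0.66. Fgfr3, a fibroblast growth factor receptor that is abundant in astrocytes, rose by 2.21 ± 0.39 (adjusted p = 0.000526, limma). Tgfa, which encodes the ligand transforming growth factor alpha, rose by 1.5 ± 0.39 (0.0103). Fgfr1 and Fgfr2 rose by 1.70 and 1.56. In E against the other lettered populations, 11 of the 19 were lower, Fgfr3 at -2.34 ± 0.40 (0.000175) and Hbegf, another EGFR ligand, at -1.79 ± 0.29 (0.000102); Pdgfra, the platelet-derived growth factor receptor amplified in part of gliomas, was at -1.36 ± 0.27 (0.000646).

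Met (chromosome 6, bases 17463800 to 17573980, plus strand) encodes the receptor of hepatocyte growth factor, and it was the member whose level followed the region. In the 2 olfactory bulb libraries of each population it measured 1.58 and 0.302 FPKM in Neg, 1.28 and 1.63 in A, 4.77 and 1.38 in B, 2.16 and 0.94 in C, 1.58 and 1.75 in D, and 0.768 and 4.01 in E. In the 10 lettered cortex libraries its median was 0, with 6 listed at 0 and 9 below 1 FPKM. In the 10 lettered brainstem libraries its median was 0.0137, with 4 listed at 0 and 8 below 1. For Met the 2 olfactory bulb libraries stood above all 4 others in 4 of 6 populations, the same count as for Nf1 and Atrx.

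The exceptions for Met were the library labelled brainstem D replicate 2, at 3.15 FPKM, and the library labelled cortex E replicate 2, at 3.71. Both also carried genes of the olfactory bulb. Over 7 markers of olfactory ensheathing cells, glia that wrap olfactory axons, the mean log2(FPKM + 1) was 6.46 and 5.50 in them, within the range of 4.01 to 6.64 in the lettered olfactory bulb libraries; the other lettered cortex libraries ranged from 1.64 to 3.01 and the other brainstem libraries from 2.09 to 4.16. None of the 7 markers was at 0 in either library.

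Over the lettered populations Met was lower in cortex than in olfactory bulb (log2 difference -1.17 ± 0.27, adjusted p = 0.00732, limma) and lower in brainstem (-1.06 ± 0.27, 0.0152). It was the only member called in either comparison, in which 3.11% and 4.24% of all genes were called lower. The cortex difference passed on all 3 scales, at -3.40 after rescaling (0.00358, with 2.51% of genes called lower) and -0.80 after quantile normalization (0.0322, with 2.21%). The brainstem difference passed after rescaling (-3.10, 0.00583, with 5.17% called lower) and missed after quantile normalization (-0.69, 0.0649, with 2.79%), with a term for the series of sample numbers (-0.96, 0.0554) and when libraries under 5000 genes were left out (-0.88, 0.0973, and -2.37, 0.0603 after rescaling). Without the 2 libraries named above the differences were -1.40 (0.00019) and -1.15 (0.00174); these libraries hold the 2 highest Met values outside the olfactory bulb, so the larger differences add no support.

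Between brainstem and cortex no member was called, with 1.26% of all genes called lower. The markers of olfactory ensheathing cells moved with Met: their median was 5.71 in the lettered olfactory bulb libraries, 2.59 in cortex and 3.66 in brainstem, and markers of neuroblasts and neural progenitors had medians of 2.26, 0.545 and 0.595. Whether these cells account for the level of Met was not tested. The interaction of population and region was called for 0 of 9 members (0.0147% of all genes; Met adjusted p = 0.79, limma's moderated F test, 0 members also at an unadjusted p under 0.05).

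**Figure D3:**
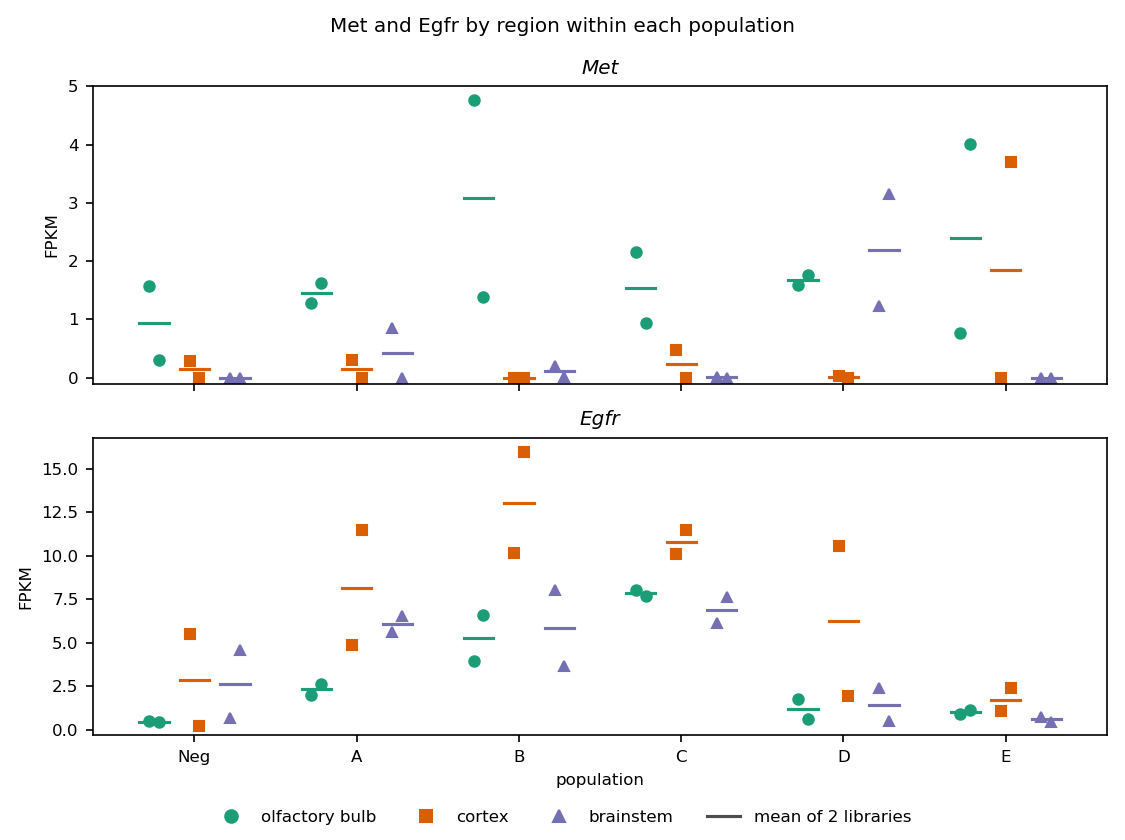
FPKM of Met (top) and Egfr (bottom) on the vertical axis by population on the horizontal axis, with 2 libraries and their mean for each region. For Met the olfactory bulb points lie above the others except in D and E, where brainstem D replicate 2 at 3.15 and cortex E replicate 2 at 3.71 stand high; for Egfr the cortex mean is the highest in each of the populations.

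Hgf, the gene of the MET ligand, had a median of 0.252 FPKM over the 36 libraries, was listed at 0 in 11, and differed between cortex and olfactory bulb by 0.63 ± 0.23 (adjusted p = 0.154, limma). It was lower in brainstem than in cortex (-0.93 ± 0.23, 0.0298). The 3 genes whose quantile-normalized log2 levels correlated best with Met over the 36 libraries, which share regions and populations, were Cyp39a1 (Pearson r = 0.837), Ahr (0.829) and Cpne8 (0.822). For Egfr they were Prex2 (0.651), Mcc (0.650) and Scg3 (0.641). In E, Met was the only member above the mean of the other lettered populations on deposited FPKM (0.18, adjusted p = 0.572, limma), a value that turned to -0.19 (0.537) without cortex E replicate 2. After quantile normalization the difference passed at 0.71 ± 0.22 (0.0455), where 3.88% of all genes were called higher; this scale was not fitted without that library.

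The start region of Met is shown with those of Trp53 and Cdk4, the members whose differences by region or in E also passed after rescaling. Each window runs from 250 bases before to 50 bases after the RefSeq start on GRCm38.p6, with capitals marking the E box CACGTG, a palindrome that reads alike on both strands; 7.15% of 32851 such windows hold it. Met lies at chr6:17463707-17464006 on the plus strand, Trp53 at chr11:69580109-69580408 on the plus strand and Cdk4 at chr10:127063285-127063584 on the plus strand.
Met: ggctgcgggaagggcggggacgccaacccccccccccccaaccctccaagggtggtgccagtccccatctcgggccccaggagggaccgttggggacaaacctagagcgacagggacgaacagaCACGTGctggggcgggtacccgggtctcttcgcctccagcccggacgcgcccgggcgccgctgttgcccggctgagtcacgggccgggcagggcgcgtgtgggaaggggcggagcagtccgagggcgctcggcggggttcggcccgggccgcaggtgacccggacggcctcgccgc
Trp53: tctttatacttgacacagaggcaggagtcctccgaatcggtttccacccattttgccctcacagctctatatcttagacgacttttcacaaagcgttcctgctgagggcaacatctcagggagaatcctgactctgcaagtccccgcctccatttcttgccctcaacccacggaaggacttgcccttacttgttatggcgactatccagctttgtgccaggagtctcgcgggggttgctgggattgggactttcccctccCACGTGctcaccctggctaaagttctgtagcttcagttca
Cdk4: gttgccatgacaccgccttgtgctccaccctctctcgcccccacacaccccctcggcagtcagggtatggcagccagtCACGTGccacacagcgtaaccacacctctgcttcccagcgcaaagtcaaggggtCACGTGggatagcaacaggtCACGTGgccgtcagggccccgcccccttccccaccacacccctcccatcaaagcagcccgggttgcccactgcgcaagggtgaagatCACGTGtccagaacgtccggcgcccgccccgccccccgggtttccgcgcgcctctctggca
The Cdk4 window holds the E box 4 times, where 0.0244% of windows hold 4 or more, and those of Met and Trp53 hold it once. Whether the motif goes with the calls was not tested. The other windows found for members (Egfr, Nf1, Mdm2, Idh1 and Atrx) have 0. The Met window is 75.7% G and C and holds 3 copies of the GC box GGGCGG counted on both strands, Cdk4 67.0% and 3, and Trp53 52.7% and 0, beside a median of 52.7% over all windows and 35.7% of windows with at least 1 GC box. Both deposited Met transcripts start within the window, as do 4 of the 5 of Trp53, while the deposited Cdk4 transcript starts just past it, at base 127063603. These matches are letters in a window, and no binding was measured.

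Nf1 (chromosome 11, bases 79339693 to 79581612, plus strand) encodes neurofibromin, which speeds the shutdown of RAS. Its FPKM had a mean of 16.3 ± 3.30 (SD, n = 6) in C, 13.4 ± 5.76 in B, 12.3 ± 5.27 in A, 10.6 ± 3.68 in D, 9.66 ± 8.47 in E and 6.03 ± 4.46 in Neg. The populations overlapped, except that every C library, at 13.5 or more, lay above every Neg library, at 11.5 or less. In that pair 40.2% of all genes were called higher in C. The difference of E from the other lettered populations did not pass (-0.61 ± 0.34, adjusted p = 0.141, limma). The olfactory bulb libraries stood above the other 4 in 4 of 6 populations, but neither region difference passed (-0.44, adjusted p = 0.602 for cortex and -0.51, 0.431 for brainstem, limma). Of the deposited transcripts, the full-length uc007kkl.1 held 39.0% of the gene's FPKM and uc007kkt.1, which covers its 3′ part, 44.7%. Omg and Evi2a lie inside an intron of Nf1. The libraries are unstranded but the deposited Nf1 transcripts are spliced, and whether reads of Omg or Evi2a entered their FPKM was not tested.

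On the list of RAS and PI3K signalling, which holds Nf1, 6 of 27 genes were called higher in A to E against Neg, beside 20.1% of all genes, and none lower (median 0.70). Among them were Mapk3, the gene of the kinase ERK1, at 1.30 ± 0.40 (adjusted p = 0.023, limma) and Akt1 at 1.04 ± 0.36 (0.0377). In E against the other lettered populations 12 of 27 were called lower, beside 42.3% of all genes (median -0.68, beside -0.66 for all genes), among them Akt1 at -1.45 ± 0.36 (0.00353, limma).

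Trp53 (chromosome 11, bases 69580359 to 69591873, plus strand), the gene of p53, was high in B and C and low in Neg and E. Its FPKM ran from 5.46 to 25.6 in B around a median of 8.81, from 3.99 to 11.4 in C around 6.31, and from 0.12 to 12.2 in A around 6.27. In D it ran from 0 to 17.5 around 1.92 and in Neg from 0 to 3.73 around 0.668. In E the 6 libraries measured 0.387 and 2.22 in olfactory bulb, 7.92 and 0 in cortex, and 0 and 0 in brainstem. Every B and C library stood above every Neg library, pairs in which 41.7% and 40.2% of all genes were called higher. Cortex E replicate 1 reached the levels of B and C.

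Trp53 was lower in E than in the mean of the other lettered populations, with a log2 difference of -1.73 ± 0.43 on deposited FPKM (adjusted p = 0.00334, limma) and -2.74 ± 0.79 after rescaling (0.0159), but not after quantile normalization (-1.01 ± 0.40, 0.114). Of all genes, 42.3%, 20.7% and 4.31% were called lower in E on these 3 scales. The difference shrank to -1.19 (0.132) without the libraries with fewer than 5000 genes. In B, Trp53 exceeded the other lettered populations by 1.39 ± 0.43 (0.0265), beside 15.3% of genes called higher; this call was lost on both other scales and without brainstem B replicate 2, cortex B replicate 1 or olfactory bulb B replicate 1. The mean log2(FPKM + 1) of 12 immediate early and dissociation response genes was 4.68 to 6.79 in the B libraries, above every library of the other populations (4.6 at most); their part in the Trp53 difference was not tested.

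The Trp53 value in E rests on a single deposited transcript. In all 6 E libraries the 4 transcripts that start at the promoter were listed at 0, and the whole level came from uc011xwx.1, a transcript over the 3′ part of the gene (chromosome 11, bases 69586891 to 69591873). This transcript was added to Trp53 by a rule adopted after the members' values and tests had been seen. Without that rule Trp53 was listed at 0 in all 6 E libraries, and its difference in E was -2.48 (adjusted p = 5.33e-05, limma). In C, by contrast, uc007jqn.2 from the promoter held 93.1% of the FPKM and uc011xwx.1 was 0. The shares of overlapping transcripts are estimates by Cufflinks.

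**Figure D4:**
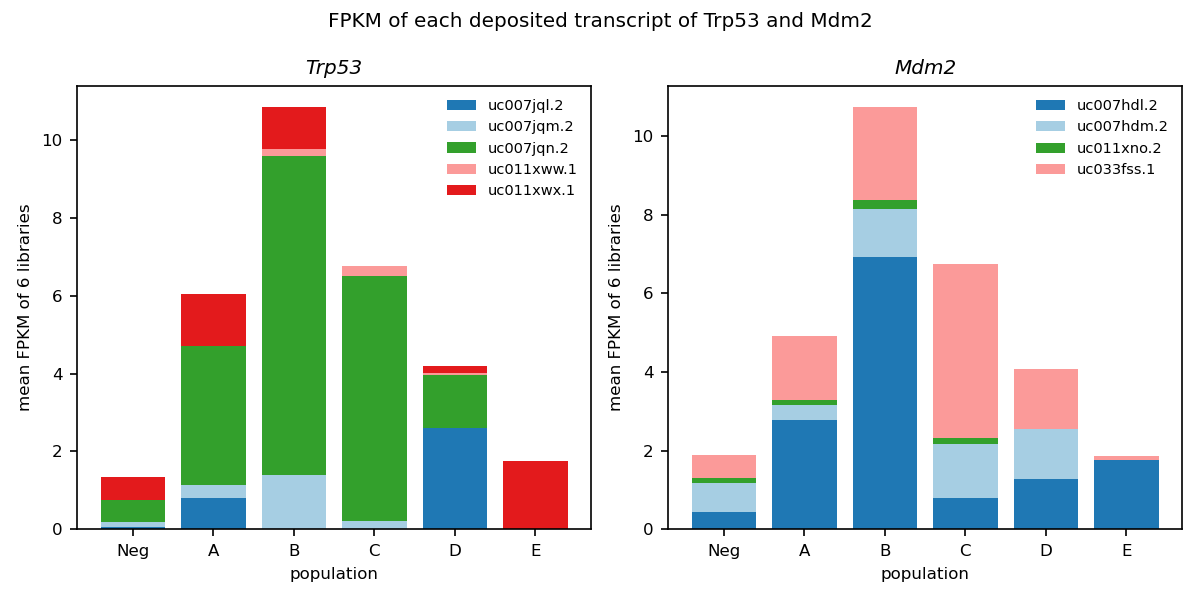
Mean FPKM of 6 libraries on the vertical axis for each deposited transcript of Trp53 (left) and Mdm2 (right), stacked, by population on the horizontal axis. In E all of Trp53 comes from uc011xwx.1 and 95% of Mdm2 from uc007hdl.2, while in C uc007jqn.2 and uc033fss.1 make up most of each gene.

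Mdm2 (chromosome 10, bases 117688875 to 117710758, minus strand), which encodes the ubiquitin ligase of p53, kept an order of populations close to that of Trp53. Its FPKM ranged from 4.21 to 34.2 in B (median 6.95), 4.09 to 10.1 in C (6.22), 2.34 to 8.76 in A (4.40), 1.14 to 7.05 in D (4.58), 0.113 to 3.49 in Neg (1.98) and 0.2 to 4.35 in E (1.65). Every B and C library lay above every Neg library, pairs in which 41.7% and 40.2% of all genes were called higher. In E the difference from the other lettered populations was -1.37 ± 0.34 (adjusted p = 0.00347, limma) on deposited FPKM, -0.86 (0.235) after rescaling and -0.23 (0.653) after quantile normalization. The call on deposited FPKM was also lost with a term for the series of sample numbers. Among its transcripts, uc007hdl.2, which starts inside the gene at base 117710028, held 11.6% of the FPKM in C and 95% in E. With this transcript alone, which has the highest mean, the E difference was 0.09 (0.89).

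The library labelled brainstem B replicate 2 had the highest value of the 36 in both genes, with 25.6 FPKM of Trp53 and 34.2 of Mdm2. There all of Mdm2 came from uc007hdl.2. Cdkn1a, a target of p53 and the gene of the cell cycle inhibitor p21, measured 57.8 FPKM in this library against a median of 8.13. Ccng1, also a target of p53, measured 78.7 against 8.33. Mdm4, on the p53 pathway list too, was at 3.41, the lowest value in B. The rest of that list, with other targets of p53, is not given for this library, so the named genes do not stand for the list. Tgfa, on another list, was at 36.4, the highest of the 36. The library had 5946 genes at 1 FPKM, the fewest of the B libraries. What its high values reflect was not tested. Cdk4 and Tbp were listed at 0 in the same library, and Tspan31, the neighbour that overlaps the annotated end of Cdk4, was at 65.0 against a median of 9.56. Ccng1 and Tspan31 were singled out after their values had been seen.

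On the list of p53 pathway genes, which holds Trp53 and Mdm2, 5 of 15 tested were higher in A to E than in Neg (median 0.67), beside 20.1% of all genes. In E, 7 of 15 were lower than in the other lettered populations (median -0.87), a share near the 42.3% of all genes. Bax, which promotes apoptosis, fell by 1.92 ± 0.47 in E (adjusted p = 0.00308, limma) and Cdkn1a fell by 1.8 ± 0.50 (0.00722). Mdm4, the partner of Mdm2, was at -0.70 ± 0.35 (0.103). Cdkn2a, whose locus is deleted in many gliomas and which encodes p16 and ARF, was listed at 0 in 35 of 36 libraries and at 0.135 FPKM in the other.

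Cdk4 (chromosome 10, bases 127063534 to 127067920, plus strand), the gene of the kinase that starts the inactivation of the retinoblastoma protein, was low in Neg and E and higher in A to D. Its FPKM ran from 2.81 to 13.8 in C (median 6.82), from 0 to 15.6 in D (9.78), from 0 to 16.2 in B (7.89) and from 1.26 to 12.1 in A (5.17). In Neg it ran from 0 to 8.02 around 0.80. The E libraries measured 0 and 0.36 in olfactory bulb, 1.22 and 3.49 in cortex, and 1.27 and 0 in brainstem. All but 1 of the E libraries lay below every C library, the exception being cortex E replicate 2. In that pair of populations 43.4% of all genes were called lower in E.

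The E difference of Cdk4 was -1.98 ± 0.44 on deposited FPKM (adjusted p = 0.00147, limma), -2.51 ± 0.85 after rescaling (0.0346) and -1.13 ± 0.40 after quantile normalization (0.0811). It held when any single library was left out (-2.18 to -1.78). Cdk4 was also the only member called lower in E than in D, a pair in which 4.47% of all genes were called lower. All D and E libraries carry sample numbers of a second series that also covers 3 libraries of A and B; with a term for that series the E difference of Cdk4 was -0.87 (0.515) and 0 members were called in E. The labels do not say what the number series stands for.

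Rb1 (chromosome 14, bases 73183673 to 73325822, minus strand), the gene of the retinoblastoma protein that CDK4 phosphorylates, was detected in all 36 libraries. Its mean FPKM was 14.3 ± 3.69 (SD, n = 6) in C, 10.1 ± 2.84 in B, 9.41 ± 4.32 in D, 8.37 ± 2.17 in A, 8.20 ± 5.36 in E and 3.78 ± 1.68 in Neg. Each C and D library, each B library except brainstem B replicate 2 and each A library except brainstem A replicate 2 stood above all Neg libraries, of which the highest measured 5.61. Of all genes, 40.2%, 4.09%, 41.7% and 3.09% were called higher in C, D, B and A than in Neg. Rb1 was the only member still called against Neg without the libraries with fewer than 5000 genes (1.06, adjusted p = 0.0332, limma), and it was not called after rescaling (0.23, 0.747). In E it was at -0.55 ± 0.33 (0.16).

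On the list of the RB pathway and cell cycle entry, which holds Cdk4 and Rb1, 5 of 17 tested genes were higher in A to E than in Neg, beside 20.1% of all genes, including the D-type cyclins Ccnd1 at 1.46 ± 0.44 (adjusted p = 0.0218, limma) and Ccnd3 at 1.42 ± 0.42 (0.0191). In E, 5 of 17 were lower than in the other lettered populations, a smaller share than the 42.3% of all genes, with Ccnd3 at -1.47 ± 0.43 (0.00884) and Rbl2, an Rb1 relative, at -1.41 ± 0.43 (0.0111). Cdk6, which shares the role of Cdk4, had a median of 0.0979 FPKM and was listed at 0 in 15 libraries; it was higher in B, by 0.91 ± 0.24 (0.00867).

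Idh1 (chromosome 1, bases 65158616 to 65186500, minus strand), the cytosolic isocitrate dehydrogenase with a hotspot mutation in many lower-grade gliomas, ranged from 7.62 to 27.0 FPKM in C (median 13.0) and from 0.188 to 6.67 in Neg (4.32), which did not overlap. The medians were 10.8 in A, 9.25 in B, 9.66 in D and 4.95 in E, with E spread from 0.264 to 19.6. Between C and Neg, 40.2% of all genes were called higher in C. Idh1 did not pass in E (-0.88 ± 0.41, adjusted p = 0.0773, limma). Of 12 genes on the list of isocitrate dehydrogenases and 2-oxoglutarate demethylation, 4 were higher in A to E than in Neg, beside 20.1% of all genes, and 7 lower in E than in the other lettered populations (median -0.95), beside 42.3%. Idh1 is among the 12. Idh3g, a subunit of the mitochondrial enzyme, fell by 2.54 ± 0.41 in E (9.9e-05), Idh2 fell by 1.95 ± 0.47 (0.00246) and the DNA demethylase gene Tet3 fell by 1.72 ± 0.32 (0.000346).

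Atrx (chromosome X, bases 105797615 to 105929403, minus strand) overlapped between all pairs of populations in its FPKM range. Its mean FPKM was 15.8 ± 6.42 (SD, n = 6) in B, 13.6 ± 7.63 in D, 11.8 ± 3.04 in C, 8.98 ± 9.22 in E, 8.22 ± 2.66 in A and 7.74 ± 3.08 in Neg. The test over the 6 populations did not pass (adjusted p = 0.174, limma's moderated F test). Of the 15 pairs of populations 1 was called, with E lower than B (-1.16 ± 0.46, adjusted p = 0.0414, limma), where 42.8% of all genes were called lower. In E it was at -0.80 ± 0.36 (0.0694); without the added rule that brought the transcript uc009ubd.1 into the gene this was -1.06 (0.0234). The olfactory bulb libraries stood above the other 4 in 4 of 6 populations, with neither region difference passing (-0.65, adjusted p = 0.396 and -0.64, 0.328, limma). On the list of chromatin, telomere and other genes mutated in glioma, 3 of 21 tested were higher in A to E than in Neg and 5 lower in E, smaller shares than the 20.1% and 42.3% of all genes. Among those lower in E were H3f3b, a gene of histone H3.3, at -1.66 ± 0.42 (0.00385), and Arid1a at -1.64 ± 0.37 (0.00178).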

How the data were processed

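RNA was amplified with the NuGEN Ovation V2 kit, which primes with random and poly(dT) primers and keeps no strand, per the labels' protocols. The authors deposited FPKM for 63241 UCSC transcripts per library, with the signal column coverage beside it; bcl2fastq 1.8.3, TopHat, Cufflinks and mm10 are named in the submitters' processing notes, without versions of the other tools. No read counts were used, so count models were not. Coverage over FPKM gave the relative depth.

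Each transcript went to the GENCODE vM21 gene whose span it matched best (score of at least 0.5, lead of 0.1), and FPKM was summed per gene. After members' values and tests had been seen, a further rule was added for unassigned spliced transcripts lying wholly inside 1 gene (822 transcripts). It was added because a Trp53 fragment had been left out. In all, 53365 transcripts (84.4%) were assigned; 1 of 81 member differences changed its call through the rule.

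limma 3.58.1 in R 4.3.3 was fitted on log2(FPKM + 1) with 18 group means (18 residual degrees of freedom) and tested on simulated data. All p-values are two-sided or from F tests and are adjusted over 13604 genes. With a pseudocount of 1 the differences of low genes come out too small. Text named the 9 members, up to 4 called genes of each list and comparison, genes set beside a member and the 3 genes most alike by Pearson correlation. Alternatives were other scales, a pseudocount of 0.1, no filter, the transcript of highest mean, array weights, a series term and left-out libraries. The members and lists were chosen with earlier results of these data known. No 2 libraries held identical values. Promoter windows came from RefSeq (GRCm38.p6) and matched 8 members. Figures used matplotlib.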

Additional observations from a re-analysis of the deposited data

Results flagged for a closer look

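Within each population the 6 libraries were checked for a value far from the others, by the gap to the next library over the whole range on the log2 scale, against Dixon's 95% critical value for 6 values. The 6 libraries span 3 regions, so a regional difference can mark a library too. Of 54 sets tested, 6 stood out, and chance marks about 1 in 20. Met measured 1.58 FPKM in olfactory bulb Neg replicate 1, with the next library at 0.302. Mdm2 measured 34.2 in brainstem B replicate 2, with the next at 7.28. Cdk4 was listed at 0 in that same library, with the next at 5.39, and measured 8.02 in olfactory bulb Neg replicate 2, with the next at 1.14. Idh1 measured 3.24 in cortex A replicate 2, with the next at 10.3, and was listed at 0 in cortex D replicate 2, with the next at 8.77. The cortex A and cortex D libraries are among the 8 with fewer than 5000 genes.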

How the results depend on the processing

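No paired analysis was possible because the labels give no replicate numbers and those used here only follow accession order. Of the 9 members, the count called higher in A to E against Neg was 7, and 0 after rescaling, 0 after quantile normalization, 1 without the libraries with fewer than 5000 genes and 0 with both that and rescaling; over 36 fits that each left out 1 library it ran from 0 to 7. In E against the other lettered populations the count was 4, and 2 after rescaling, 1 (Met, higher) after quantile normalization, 0 with a series term, 2 without the libraries with fewer than 5000 genes and 0 with both (leaving out 1 library, 4 to 7). In B it was 1, and 0 on both other scales, 0 with a pseudocount of 0.1, 0 without a filter, 0 with a series term and 2 without the 2 libraries carrying olfactory bulb genes (leaving out 1 library, 0 to 3). In C it was 1, and 0 on both other scales, 0 with the smaller pseudocount, 2 with the transcript of highest mean, 2 with array weights, 0 with a series term and 0 when rescaled without the small libraries (leaving out 1 library, 0 to 2). In cortex against olfactory bulb it was 1, and 2 after quantile normalization and in both fits without the small libraries (leaving out 1 library, 1 to 2). In brainstem against olfactory bulb it was 1, and 0 after quantile normalization, 0 with a series term and 0 in both fits without the small libraries. The joint test over populations called 6, and 0 on both other scales (leaving out 1 library, 4 to 8). Pairs of populations called, summed over the members, were 28, and 2 after rescaling, 1 after quantile normalization, 18 with a series term, 11 without the small libraries and 3 with both; assigning by overlap score alone gave 33. The sign turned for Nf1 against Neg, at -0.16 rescaled without the small libraries, and for Mdm2 in E, at 0.0899 with the transcript of highest mean. The cause was not tested. The cortex difference of Met passed in 47 of 47 alternatives, from -3.40 to -0.80. Many of these could not move the difference, such as leaving out a Neg or brainstem library or assigning by overlap score alone. The count is thus not one of independent checks. The comparison of A to E with Neg lost Rb1 in 1 of the fits that left out 1 library (cortex Neg replicate 2), and the other 6 called members each in 4 or 5, all without a Neg library. The fit rescaled without the small libraries was chosen after seeing the data. Fits without the small libraries used additive terms for population and region, since brainstem Neg and brainstem E lost both libraries. The first number series alone left pairs among Neg, A, B and C, and is not given here. Depth was not known in reads, and Met had a median of 0.292 FPKM.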
